A study of Mus with 8 samples.

Results

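The nuclear genes for the enzyme complexes of oxidative phosphorylation were followed in mouse uterus. The rule took every gene of the count table with a matching symbol, and it was set with earlier results of these data known. Matching symbols begin with Nduf (complex I), Uqcr (complex III), Cox4 to Cox8 (complex IV) or Atp5 (complex V). Sdha, Sdhb, Sdhc and Sdhd (complex II) were added. This gave 92 of 31269 genes, with 45 in complex I, 4 in complex II, 8 in complex III, 18 in complex IV and 17 in complex V. The tissue was uterus at day 6 of pseudopregnancy, a progesterone-driven state induced by mating without fertilisation, and 8 RNA sequencing libraries were compared. The labels call 4 of them control and 4 myometrial PGR deficiency, that is, a lack of the progesterone receptor in the smooth muscle wall of the uterus. The sources used here give no Cre line, allele, strain or age. The labels place the tissue around implantation sites, although pseudopregnancy involves no embryo, and they name no animal behind any library. The p-values below therefore measure the spread between these libraries, which may be technical.

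Oxidative phosphorylation takes place in the inner mitochondrial membrane. Complexes I and II pass electrons from NADH and succinate to ubiquinone, complex III hands them to cytochrome c, and complex IV passes them to oxygen. Complexes I, III and IV pump protons, and complex V, the ATP synthase, uses the proton gradient to make ATP. Most subunits are encoded in the nucleus, and a few, at the catalytic heart of complexes I, III, IV and V, in the mitochondrial genome. The mitochondrially encoded genes are not analysed here. Smooth muscle of the uterus needs this ATP for its cross-bridge cycle and ion pumps, while epithelium and stroma also rely on it, and each cell type holds its own amount of mitochondria. In bulk RNA, fewer cells of a type and less RNA per cell cannot be told apart.

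Total counts per library ran from 70296369 to 72364750. Pgr itself, the targeted gene, measured 156.5 ± 22.8 CPM (counts per 1e+06 of the TMM-scaled library size; mean ± SD of 4 libraries) in the controls, against 176.9 ± 12.1 CPM in the other group. Because Pgr was not lower, the second group is called deficient-labelled, and directions rest on the label alone. These are counts of the whole gene in bulk uterus, with several cell types present. They cannot show whether Pgr was lost in smooth muscle only or in part of the gene. Markers of smooth muscle, epithelium and stroma were all present: their summed levels ran from 4565 to 6775 CPM, from 1384 to 3272 CPM and from 5980 to 8924 CPM over the 8 libraries. With 17629 genes in the fit, 0 (0%) had an adjusted p under 0.05 by the quasi-likelihood test of edgeR. At an unadjusted p under 0.05 there were 4372 genes, or 24.8% of those tested (13.0% higher and 11.8% lower in the second group), and DESeq2 called 2488 genes (14.1%) and limma-voom 2.

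Gene positions given below are in GRCm38.p6, from RefSeq. The 92 genes held a nearly fixed share of each library. They took 0.626% ± 0.0251 of all counts in the controls and 0.640% ± 0.0113 in the deficient-labelled libraries (SD, n = 4 each), with single libraries between 0.595% and 0.653%. By complex, the control shares were 0.208% for complex I, 0.0489% for complex II, 0.0605% for complex III, 0.103% for complex IV and 0.205% for complex V. The shares in the deficient-labelled libraries were 0.215%, 0.0522%, 0.0614%, 0.103% and 0.209%. Complex IV was thus at the same share in both groups to the precision printed, and the single-library shares of each complex overlapped between the groups. These shares go by symbol, so they include assembly factors that are not subunits, such as the Ndufaf genes and Cox7a2l.

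**Figure D1:**
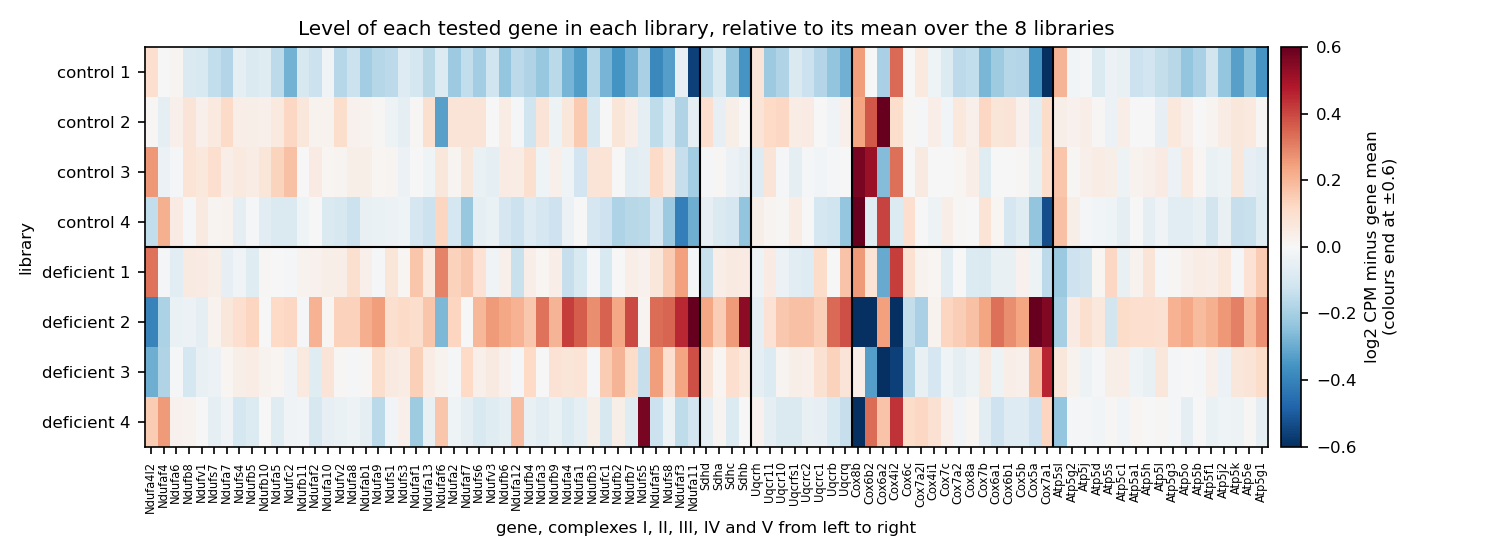
Colours give log2 CPM of the tested genes named on the axis (columns, ordered by complex and then by difference) in each of the 8 libraries (rows), minus the mean of that gene over the libraries; the colour scale ends at ±0.6. Control library 1 is pale to mid blue and deficient-labelled library 2 mostly red across complexes I, II, III and V, and the tissue-restricted genes Cox8b, Cox6b2 and Cox4i2 of complex IV run the other way in library 2.

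Of the 92 genes, 90 passed the filter on low counts, and the remaining pair, the testis-type isoforms Cox7b2 and Cox8c, had at most 1 count in any library. None of the 90 passed the test over all genes in edgeR. At an unadjusted p under 0.05 stood 8 genes, 6 higher and 2 lower, and limma-voom called 0 and DESeq2 1 at the adjusted threshold. That is 6 of 90 against a background of 13.0% higher and 2 of 90 against 11.8% lower among all tested genes. In 2 genes all deficient-labelled libraries lay above all controls, and in 0 all lay below, against 7.61% and 8.66% of all tested genes. These counts were below the background in each direction, and they moved with single libraries. Leaving out deficient-labelled library 4 gave 14 genes higher at an unadjusted p under 0.05 and 19 with groups apart, whereas leaving out control library 4 gave 0 and 1, control library 1 gave 1 and 1, and deficient-labelled library 2 gave 1 and 2.

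Their differences were small and leaned to one side. The log2 difference of deficient-labelled over control was positive in 72 of 90 genes (background 52.0%), with a median of 0.10, a 1.07-fold ratio, against 0.01 over all tested genes. The quartiles were 0.02 and 0.14, against -0.19 and 0.22 for all tested genes. Without control library 1 and deficient-labelled library 2 the median was 0.01 and 49 of 90 differences were positive. That pair was chosen after seeing the data, as the lowest control and the highest library of the other group, so its removal had to make the difference smaller. On leaving out each library in turn, the median lay between 0.05 (without control library 1, and likewise without deficient-labelled library 2) and 0.11. With library totals in place of TMM scaling, 55 of 90 were positive and the median was 0.06. Some marker lists differed between the groups beside this lean. The sum of 6 macrophage markers (6 tested, 6 with positive differences, 5 of them at an unadjusted p under 0.05) was 483 to 642 CPM in the controls and 659 to 914 CPM in the deficient-labelled libraries. The sum of 4 red cell markers (4 tested, 4 negative, each at an unadjusted p under 0.05) was 73.1 to 105 CPM against 38.0 to 59.2 CPM. The 10 smooth muscle markers (10 tested, 10 negative, 3 at an unadjusted p under 0.05) summed to 4574 to 6775 CPM against 4565 to 5326 CPM, with overlapping groups. No marker of these lists was at 0 in every library, and their part in the lean was not tested.

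A 95% interval for the difference lay within 1.5-fold in both directions in 79 of 90 genes, against 50.0% of all tested genes. A difference beyond 1.5-fold was thus outside the interval for most of these genes, although the intervals do not show that the groups were equal. The median gene of the group had 3840 counts per library against 1854 for all tested genes. The spread between libraries of a group was 0.11 on the log2 scale for the median gene, against 0.22 for all tested genes. The 11 genes whose interval reached past 1.5-fold were Ndufa11, Ndufs5, Ndufaf3 and Ndufaf5 of complex I, Sdhb of complex II, and Cox5a, Cox4i2, Cox6a2, Cox6b2, Cox7a1 and Cox8b of complex IV.

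**Figure D2:**
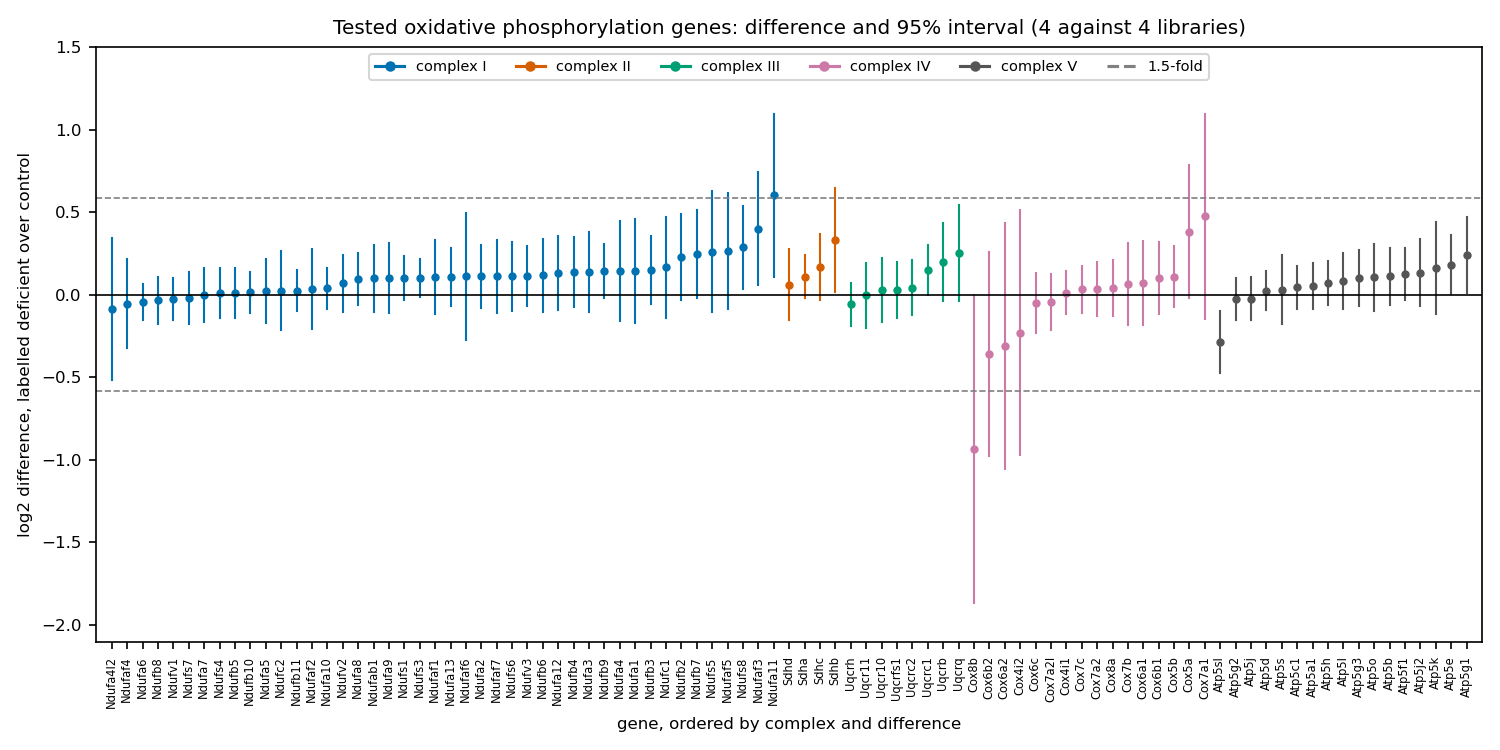
Points give the log2 difference (vertical axis, labelled deficient over control, 4 against 4 libraries) of the tested genes named on the axis, coloured by complex, and bars its 95% interval; dashed lines mark 1.5-fold. Most points lie slightly above 0 with bars inside the dashed lines, and the wide bars belong mainly to the tissue-restricted genes of complex IV.

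Complexes I, II, III and V had the same libraries at their ends. The mean of log2 CPM over the genes of a complex, centred on each gene's mean over the 8 libraries, was lowest in control library 1 for complexes I (-0.17), II (-0.21), III (-0.15) and V (-0.13). It was highest in deficient-labelled library 2 for the same complexes, at 0.15, 0.29, 0.18 and 0.13. The other 6 libraries lay between -0.12 and 0.06 for these complexes. Complex IV as a whole was also lowest in control library 1 (-0.11), but it was highest in control library 2 (0.11) and at -0.02 in deficient-labelled library 2. Its 10 widely expressed subunits alone were at -0.16 in control library 1 and at 0.21 in deficient-labelled library 2. Deficient-labelled library 2 held the highest level of the 8 in 62 of 90 genes and control library 1 the lowest in 65, where 28.6% and 13.5% of all tested genes did so. Both held at once in 55 of 90 genes, against 7.73% of all tested genes. The libraries were picked as the ends of these same genes, which vary together. Counts above the background thus follow in part from that choice and are no test. With library totals as the scaling, library 2 was highest in 37 genes and control library 1 lowest in 50. The first principal component of the 90 genes carried 60.6% of their variance, whose ends were deficient-labelled library 2 (2.88) and control library 1 (-1.71).

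Deficient-labelled library 2 also stood apart in other gene lists. It had the highest summed epithelial markers (3272 CPM, with library 3 at 2423 CPM and the other 6 libraries between 1384 and 1622 CPM; 11 of 11 markers tested). Its mean over 11 hypoxia-responsive genes was 0.77 and over the 19 genes of the glycolysis list 0.32 on the centred log2 scale, where no other library passed 0.08 in either list. The hypoxia-responsive genes did not move as a whole: library 2 was highest in 7 of the 11 and lowest in 1, Vegfa. Egln3 (59.0 CPM against 4.06 to 11.7 CPM in the other libraries) and Ankrd37 (7.50 CPM against 0.677 to 1.24 CPM) stood out most. Bnip3 and Slc2a1 were below every control there, at 31.0 and 72.9 CPM. For both genes this held in every deficient-labelled library, and library 2 was the lowest for neither. Its mean over 33 cytosolic ribosomal protein genes was -0.19, the lowest of the 8. Control library 1 did not stand apart in its epithelial sum, with 1622 CPM beside 1592 CPM in control library 3. Its smooth muscle sum of 4574 CPM was the lowest of the controls (next 5410 CPM), beside 4565 CPM in deficient-labelled library 1. The stroma sum of control library 1 was the lowest of the 8 (5980 CPM, next 6747 CPM). That of library 2 was the highest (8924 CPM), while the centred stroma means were -0.04 and -0.21. Of the lists described below, the tricarboxylic acid cycle, electron carriers, import and glycolysis had the same ends in their centred means. Outside assembly genes, regulators, hypoxia-responsive and ribosomal genes did not. The part of these lists in the levels of the oxidative phosphorylation genes was not tested.

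**Figure D3:**
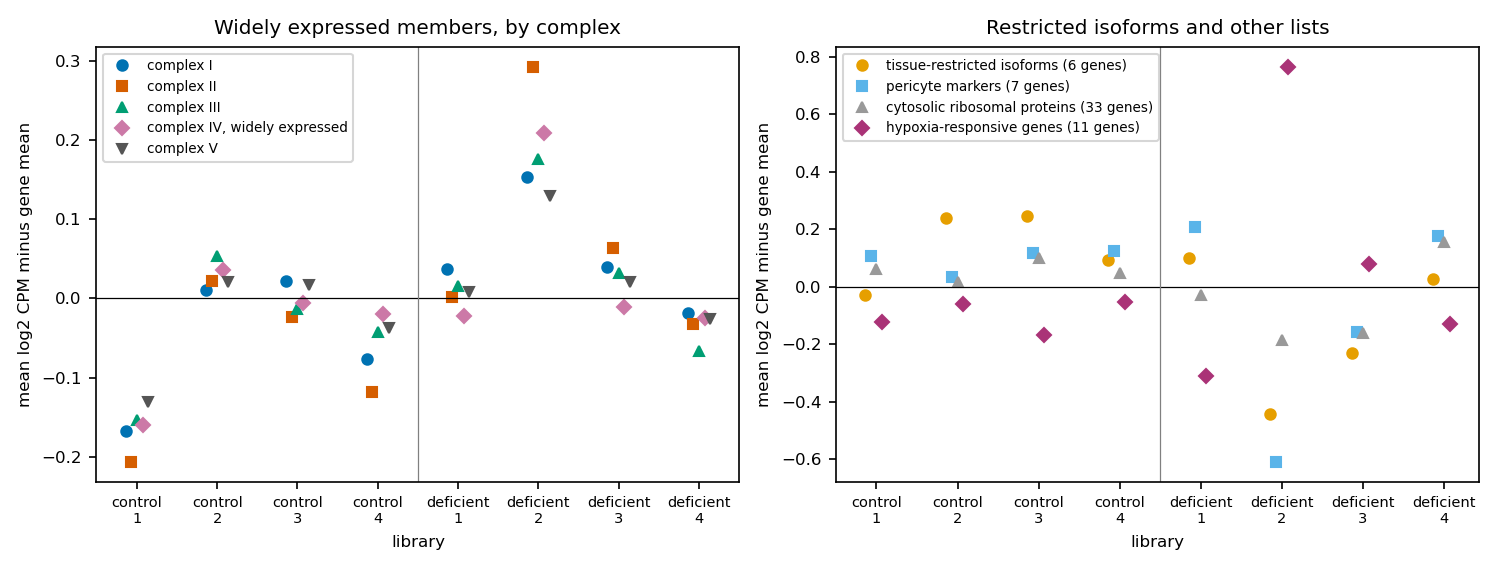
Each point is the mean over the genes of a list of log2 CPM minus the gene's mean over the 8 libraries (vertical axes) in 1 library (horizontal axes). On the left the 5 complexes, complex IV without its tissue-restricted isoforms, stand between -0.21 and -0.13 in control library 1 and between 0.13 and 0.29 in deficient-labelled library 2; on the right the 6 tissue-restricted isoforms and 7 pericyte markers are lowest in deficient-labelled library 2, where hypoxia-responsive genes are at 0.77.

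Complex I takes electrons from NADH through a flavin and a chain of iron-sulfur clusters carried by 7 nuclear core subunits. Of these, 5 had positive differences and 2, Ndufv1 and Ndufs7, negative ones, and the median was 0.10. Ndufs3 (chromosome 2, 90894627 to 90904721), a core subunit of the arm that binds ubiquinone, measured 43.5, 44.1, 44.8 and 45.1 CPM in control libraries 1 to 4 and 46.3, 49.7, 47.4 and 47.0 CPM in deficient-labelled libraries 1 to 4. The groups did not overlap, yet the log2 difference was only 0.10 ± 0.05 (SE; adjusted p = 0.25 in edgeR). Ndufs8, which carries iron-sulfur clusters, measured 36.3, 43.2, 47.4 and 39.2 CPM in the controls and 50.8, 58.3, 48.9 and 44.7 CPM in the deficient-labelled libraries. Control library 3 lay above deficient-labelled library 4, and the log2 difference was 0.29 ± 0.11 (SE; adjusted p = 0.161). Ndufs1, the largest subunit, was at 0.10 ± 0.06, Ndufv2 at 0.07 ± 0.08, Ndufs7 at -0.02 ± 0.07 and Ndufv1, which binds the flavin and NADH, at -0.03 ± 0.06 (SE). The reads of Ndufs1 and Ndufv2 could be shared with genes whose spans overlap theirs in the RefSeq annotation (Ino80dos and Ankrd12), and no source used here gives the strand setting of the counting.

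The 30 accessory subunits of complex I, which surround and stabilise the core, had 27 positive differences and a median of 0.11. By its symbol Ndufa4, now counted as a complex IV subunit, is among them, at 0.14 ± 0.13 (SE). Ndufa11 (chromosome 17, 56717762 to 56724248), a membrane arm subunit at the contact with complex III in the respiratory supercomplex, had the largest positive difference of all 90 genes. It measured 29.0, 41.0, 37.0 and 34.9 CPM in the controls and 42.6, 77.3, 56.0 and 39.5 CPM in deficient-labelled libraries 1 to 4. Libraries 2 and 3 stood above the rest, library 4 lay below control library 2, and the log2 difference was 0.60 ± 0.22 (SE; adjusted p = 0.148). Without deficient-labelled library 2 it was 0.38, and without libraries 2 and 3 it was 0.21. Ndufb7, a subunit on the intermembrane side, was at 0.25 ± 0.12 (SE). Ndufs5, an intermembrane-side subunit named after its values were seen, measured 18.4 CPM in deficient-labelled library 4 and from 10.8 to 12.6 CPM in the other 7 libraries. It was one of the few genes of the group for which library 4 stood apart. The remaining 27 accessory subunits lay between -0.04 and 0.23.

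Assembly factors build complex I without being part of it, and 7 of them (Ndufaf1 to Ndufaf7) carry the Nduf prefix. Their differences ran from -0.05 to 0.40, with 6 of 7 positive and a median of 0.11. Ndufaf3, which acts early in the assembly of the ubiquinone-binding module, measured 10.5, 9.58, 9.86 and 8.16 CPM in the controls and 12.9, 14.8, 12.8 and 9.75 CPM in the deficient-labelled libraries. Deficient-labelled libraries 1 to 3 lay above every control and library 4 fell inside the control range, for a log2 difference of 0.40 ± 0.15 (SE; adjusted p = 0.157). The other 6 factors lay between -0.05 and 0.26. Deficient-labelled library 2 was the highest library for only 3 of the 7 factors, where it was for 25 of the 37 core and accessory subunits (Ndufa4 among them), a contrast that was not tested.

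Complex II, succinate dehydrogenase, also belongs to the tricarboxylic acid cycle and is encoded wholly in the nucleus. All 4 subunits had positive differences, with a median of 0.14. Sdha (chromosome 13, 74322255 to 74350240), the flavoprotein that oxidises succinate, measured 254, 261, 271 and 254 CPM in the controls and 277, 299, 272 and 272 CPM in the deficient-labelled libraries. The groups did not overlap, by a margin of about 1 CPM between control library 3 and deficient-labelled library 3, and the log2 difference was 0.11 ± 0.06 (SE; adjusted p = 0.271). Sdhb (chromosome 4, 140961271 to 140979198), the iron-sulfur subunit, measured 58.3, 74.7, 71.7 and 63.1 CPM in the controls and 77.1, 107.9, 78.0 and 74.3 CPM in the deficient-labelled libraries. Deficient-labelled library 2 lay far above the rest, and the log2 difference of 0.33 ± 0.14 (SE; adjusted p = 0.183) was 0.20 without it. The membrane anchors Sdhc and Sdhd were at 0.17 ± 0.09 and 0.06 ± 0.09 (SE), with overlapping groups.

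Complex III holds the Rieske protein Uqcrfs1, the large matrix-side proteins Uqcrc1 and Uqcrc2, and small subunits. Of 8 genes 6 had positive differences, the median was 0.04, and 0 reached an unadjusted p under 0.05 in edgeR. The median changed sign with library totals as the scaling (-0.01) and without control library 1 or deficient-labelled library 2. Uqcrc1 measured 107, 121, 119.9 and 113 CPM in the controls and 131, 134, 129 and 117 CPM in the deficient-labelled libraries, with library 4 inside the control range. Its log2 difference was 0.15 ± 0.07 (SE; adjusted p = 0.206). Uqcrq, a ubiquinone-binding subunit, was at 0.25 ± 0.13 and Uqcrb at 0.20 ± 0.10, while Uqcrc2 was at 0.04 ± 0.07, Uqcrfs1 at 0.03 ± 0.07 and the hinge protein Uqcrh at -0.06 ± 0.06 (SE).

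In complex IV, cytochrome c oxidase, the nuclear subunits encase a catalytic core that the mitochondrial genome encodes, and several come as a common isoform and a tissue-restricted one. The 10 widely expressed subunits had 9 positive differences and a median of 0.05. Cox4i1, the common form of the largest nuclear subunit, measured 171, 179, 174 and 170.3 CPM in the controls and 175, 176, 162 and 185 CPM in the deficient-labelled libraries. The groups overlapped fully, and the log2 difference was 0.01 ± 0.06 (SE), with a 95% interval from -0.12 to 0.14. Cox5a (chromosome 9, 57517328 to 57532427), a matrix-side subunit, measured 39.9, 48.8, 49.6 and 43.3 CPM in the controls and 50.1, 81.8, 57.9 and 46.8 CPM in the deficient-labelled libraries. As for Ndufa11 and Sdhb, library 2 was highest and control library 1 lowest, and the log2 difference was 0.38 ± 0.17 (SE; adjusted p = 0.218). Cox5b, which binds zinc, was at 0.11 ± 0.08, Cox6a1 at 0.07 ± 0.11, Cox6b1 at 0.10 ± 0.09, Cox7a2 at 0.04 ± 0.07, Cox7b at 0.07 ± 0.11, Cox7c at 0.03 ± 0.06, Cox8a at 0.04 ± 0.07 and Cox6c at -0.05 ± 0.08 (SE). Cox6c and Cox7c lay outside the naming rule and complete the 10. Cox7a2l, a supercomplex assembly factor rather than a subunit and also outside that rule, was at -0.04 ± 0.07 (SE).

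**Figure D4:**
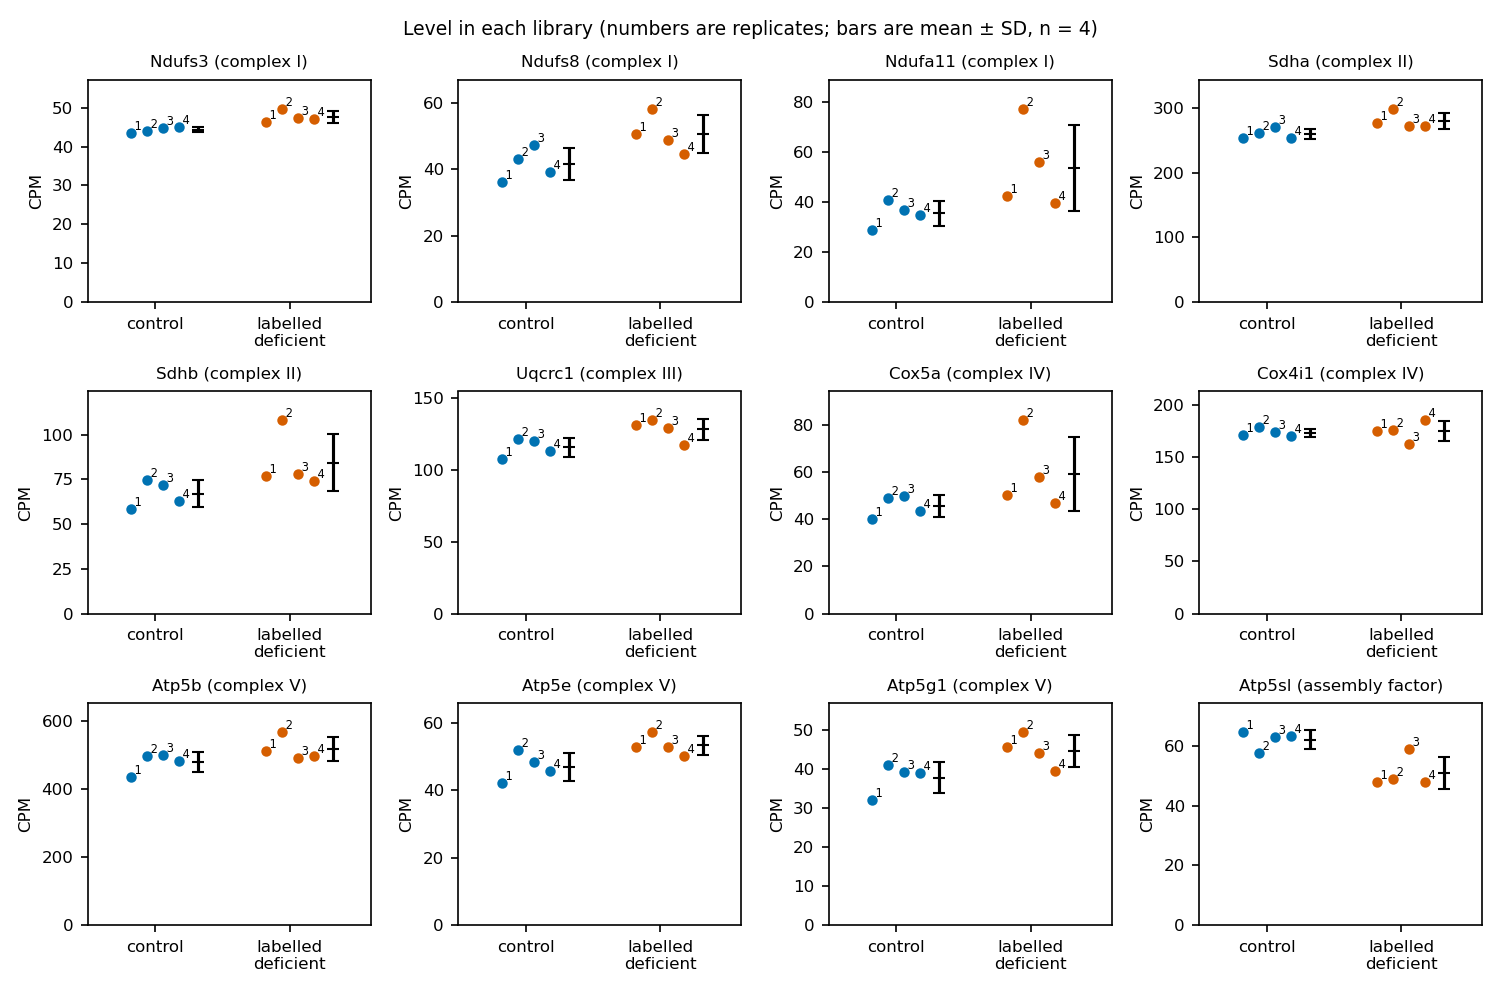
Level in CPM (vertical axes, from 0) of 12 genes in the 4 control libraries and the 4 deficient-labelled libraries; numbers beside the points are replicates and bars are mean ± SD. Deficient-labelled library 2 is the highest point for 10 of the 12, the exceptions being Cox4i1 and Atp5sl, and for Atp5sl 3 of the 4 deficient-labelled libraries lie below all controls.

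Of the 6 tissue-restricted isoforms tested, 5 had negative differences, where 52.0% of all tested genes had positive ones, and Cox7a1 had a positive one. Their difference from the common isoforms was tested only for single pairs, given below. Their centred mean was -0.44 in library 2 and -0.23 in deficient-labelled library 3, against -0.03 to 0.25 in the other 6 libraries. Cox4i2 (chromosome 2, 152753916 to 152765039), the isoform of lung and of oxygen-sensing vascular cells, measured 6.72, 5.73, 6.68 and 5.02 CPM in the controls and 7.09, 2.70, 3.60 and 7.18 CPM in deficient-labelled libraries 1 to 4. Its 4 values of the second group thus fell into a pair above every control and a pair below every control, and the log2 difference was -0.23 ± 0.32 (SE). Cox6b2, the testis-type isoform of subunit 6b, was likewise lowest in deficient-labelled libraries 2 and 3, while libraries 1 and 4 lay inside the control range, with 9.26, 4.67, 6.97 and 11.03 CPM in the deficient-labelled libraries against 8.73, 11.3, 12.5 and 8.32 CPM in the controls. Ndufa4l2, a hypoxia-inducible relative of Ndufa4 (a protein now counted as a complex IV subunit despite its name), measured 11.7, 7.05, 7.60 and 10.3 CPM against 10.002, 9.37, 11.1 and 8.40 CPM. None of these 3 genes differed beyond the spread between libraries, with adjusted p of 0.676, 0.43 and 0.794 in edgeR. The spans of Cox4i2 and Ndufa4l2 overlap other genes (Bcl2l1 and Shmt2 among them), so part of their reads could come from those.

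Pericyte and endothelial markers were low in the same libraries. The sum of 7 pericyte markers (7 of 7 tested, none at 0 in every library) was 482 CPM in library 2 and 598 CPM in deficient-labelled library 3, against 657 to 769 CPM in the other 6 libraries. The sum of 6 endothelial markers was 572 and 671 CPM, against 861 to 1147 CPM. Pericyte sums overlapped between the groups, from 657 to 744 CPM in the controls and from 482 to 769 CPM in the deficient-labelled libraries. Their part in the levels of Cox4i2, Cox6b2 and Ndufa4l2 was not tested.

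The isoforms of heart and skeletal muscle were near the limit of detection. Cox8b (chromosome 7, 140898942 to 140900446) had 31, 30, 39 and 53 counts in the controls and 31, 10, 26 and 12 counts in the deficient-labelled libraries, or from 0.423 to 0.747 CPM and from 0.148 to 0.428 CPM. Its log2 difference of -0.94 ± 0.41 (SE; adjusted p = 0.2) was the largest negative one of the group, and deficient-labelled library 1 lay among the controls. The span of Cox6a2 overlaps that of Itgad, so part of its reads could come from that gene. Cox6a2 ran from 0.356 to 0.677 CPM in the controls and from 0.255 to 0.504 CPM in the other group. Cox7a1 leaned the other way, from 0.551 to 0.945 CPM in the controls and from 0.788 to 1.29 CPM in the deficient-labelled libraries, at 0.48 ± 0.27 (SE). The sum of 14 skeletal and heart muscle markers (9 of 14 tested, with the fast-fibre myosins Myh1, Myh2 and Myh4 at 0 or 1 count in each library) was from 88.0 to 130.8 CPM in the controls and from 63.7 to 82.2 CPM in the deficient-labelled libraries. Most of it was Acta1, at 58.8 to 93.3 CPM and 40.9 to 59.6 CPM. The part of that difference in the levels of these isoforms was not tested.

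Isoform ratios within a library do not depend on scaling, and 8 pairs were compared on the log2 scale with two-sided exact permutation tests, where the smallest p possible is 0.0286. The groups overlapped in each of the 8, and the smallest exact p was 0.0571 (0.229 after adjustment over the 8 pairs), for Cox8b over Cox8a, at -7.56 ± 0.359 in the controls and -8.63 ± 0.857 in the deficient-labelled libraries (SD, n = 4). Cox7a1 over Cox7a2 was at -6.19 ± 0.342 and -5.74 ± 0.299 (exact p = 0.114), and Cox6a2 over Cox6a1 at -7.42 ± 0.376 and -7.79 ± 0.407 (exact p = 0.229). The ratio of Cox4i2 to Cox4i1 was -6.03 and -5.49 in deficient-labelled libraries 2 and 3 and between -5.08 and -4.63 in the other 6 libraries. That of Cox6b2 to Cox6b1 was -4.49 and -3.67, against -3.28 to -2.79, and that of Ndufa4l2 to Ndufa4 was -3.89 and -3.44, against -3.19 to -2.61. For these 3 pairs deficient-labelled libraries 2 and 3 were the lowest of the 8, while libraries 1 and 4 lay within or above the control range, so the group difference had exact p of 0.4, 0.229 and 0.486. Without libraries 2 and 3, those 3 differences were 0.20, 0.02 and 0.23, where they were -0.36, -0.51 and -0.24 with all libraries.

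**Figure D5:**
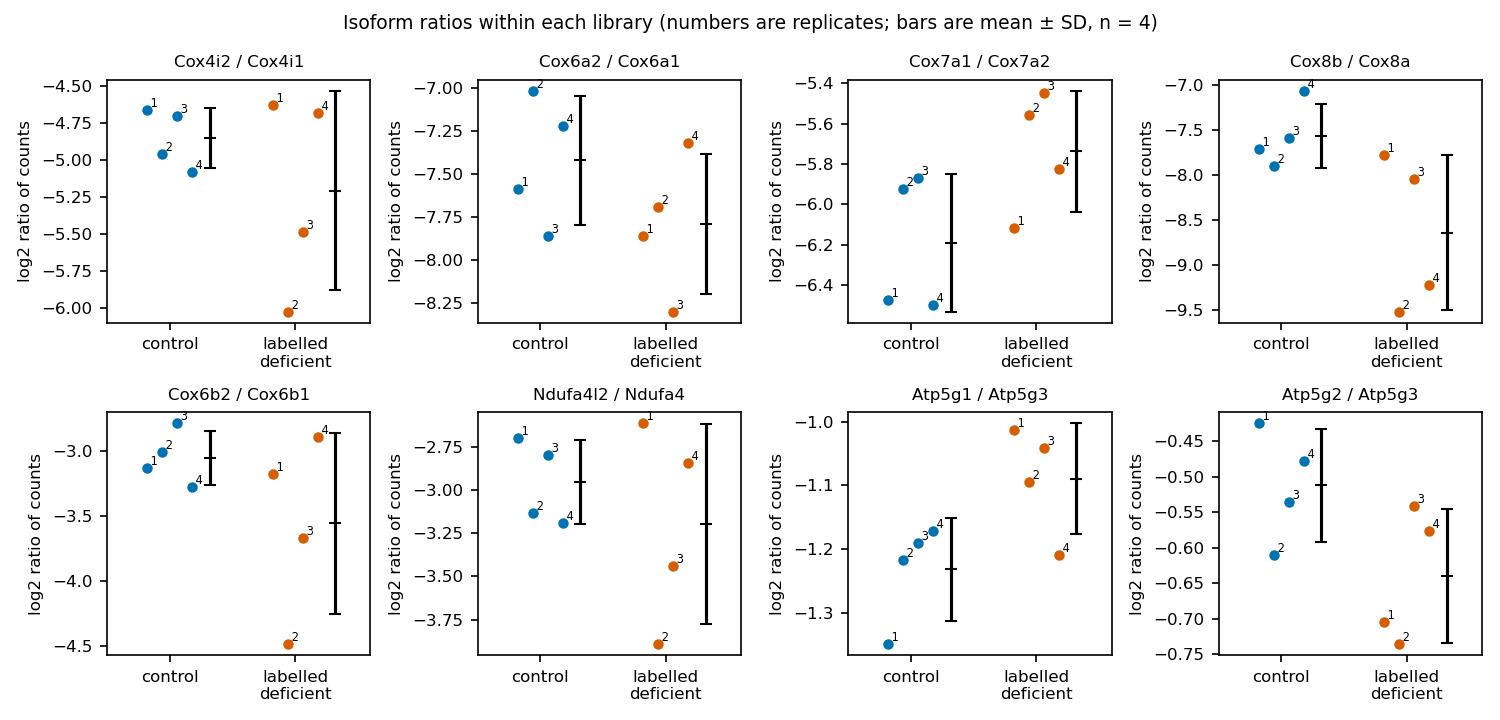
Each panel gives the log2 ratio of counts of 2 isoforms within a library (vertical axis) for the 4 control libraries and the 4 deficient-labelled libraries; numbers are replicates, and bars are mean ± SD. In the panels for Cox4i2, Cox6b2 and Ndufa4l2 over their common partners, deficient-labelled libraries 2 and 3 lie below all other libraries, at -6.03 and -5.49 for Cox4i2.

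Complex V had 14 of 17 positive differences and a median of 0.08, and 17 of 17 intervals lay within 1.5-fold. The catalytic head is built of Atp5a1 and Atp5b around the rotating shaft of Atp5c1, Atp5d and Atp5e, and the membrane ring of copies of subunit c, which Atp5g1, Atp5g2 and Atp5g3 all encode. Atp5b, the catalytic subunit, measured 436, 499, 502 and 483 CPM in the controls and 514, 569, 493 and 499 CPM in the deficient-labelled libraries, with overlapping groups and a log2 difference of 0.11 ± 0.07 (SE). Atp5a1 was at 0.05 ± 0.06, Atp5c1 at 0.04 ± 0.06 and Atp5d at 0.03 ± 0.05 (SE). Atp5e measured 42.0, 51.9, 48.2 and 45.5 CPM in the controls and 52.9, 57.2, 52.6 and 50.2 CPM in the deficient-labelled libraries. Only control library 2 overlapped the second group, and the log2 difference was 0.18 ± 0.08 (SE; adjusted p = 0.198). The peripheral stalk and other small subunits (7 genes) lay between -0.02 and 0.16, with Atp5f1, a stalk subunit, at 0.12 ± 0.07 (SE).

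The genes for subunit c encode the same mature protein behind different import sequences, and they did not lean alike. Atp5g1 measured 31.9, 41.0, 39.1 and 38.9 CPM in the controls and 45.4, 49.4, 44.0 and 39.3 CPM in the deficient-labelled libraries, with 3 of the 4 above every control and a log2 difference of 0.24 ± 0.10 (SE; adjusted p = 0.189). Atp5g3 was at 0.10 ± 0.07 and Atp5g2 at -0.03 ± 0.06 (SE). Within libraries, the log2 ratio of Atp5g1 to Atp5g3 was -1.23 ± 0.0804 in the controls and -1.09 ± 0.0869 in the deficient-labelled libraries (SD, n = 4; exact permutation p = 0.0857). That of Atp5g2 to Atp5g3 was -0.51 ± 0.0796 and -0.64 ± 0.0948 (SD, n = 4; exact permutation p = 0.114). The adjusted p was 0.229 for both pairs. Genes of this family have close copies in the genome, so the split of reads between them is uncertain.

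Atp5sl was the gene with the smallest p of the group. Despite its symbol it is known as a factor for the assembly of the membrane arm of complex I, not as a subunit of ATP synthase. Its span, chromosome 7 positions 25619414 to 25625550 in GRCm38.p6, overlaps the predicted gene Gm38969. It measured 64.8, 57.6, 63.1 and 63.5 CPM in the controls and 48.1, 49.0, 59.0 and 47.9 CPM in deficient-labelled libraries 1 to 4. Deficient-labelled libraries 1, 2 and 4 lay below every control, and library 3 lay inside the control range. The log2 difference was -0.29 ± 0.08 (SE), which as a fold is 0.820, with 95% bounds of 0.719 and 0.935. In edgeR the unadjusted p was 0.0082 and the adjusted p 0.108. DESeq2 called it (log2 difference -0.28, adjusted p = 0.0237), the only one of the 90 genes it called. Its difference was between -0.37 and -0.26 on leaving out each library in turn. Atp5s, a gene of similar name for a coupling factor of ATP synthase and outside the naming rule, was at 0.03 ± 0.09 (SE).

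The other nuclear genes of mitochondrial energy metabolism were counted in the same fit, by lists chosen with earlier results of these data known. No gene of these lists passed the test over all genes in edgeR, while DESeq2, which called 14.1% of all tested genes, called 3 of 34 assembly genes, 3 of 18 genes of the tricarboxylic acid cycle, 2 of 19 regulators, 1 of 22 import and membrane proteins, 0 of 14 electron carriers, 4 of 19 glycolysis genes and 3 of 11 hypoxia-responsive genes. The counts that follow stand against all tested genes, of which 52.0% had positive differences, 13.0% were higher and 11.8% lower at an unadjusted p under 0.05, and 7.61% lay wholly above and 8.66% wholly below the controls. Of 34 tested assembly genes for complexes I to V outside the 92, 28 had positive differences with a median of 0.07, 5 had an unadjusted p under 0.05 and were higher (0 lower; background 13.0% and 11.8%), and 5 lay wholly above the controls (background 7.61%). Coa3 and Taco1, both needed to make the first subunit of cytochrome c oxidase, were at 0.41 ± 0.11 and 0.36 ± 0.11, and Coa5 at 0.22 ± 0.07 (SE). Of 18 genes of the tricarboxylic acid cycle and its entry, 13 had positive differences with a median of 0.11, 3 had an unadjusted p under 0.05, all higher (background 13.0%), and 6 lay wholly above the controls (background 7.61%). Cs, citrate synthase, measured 206 ± 15.5 CPM in the controls and 246 ± 20.2 CPM in the deficient-labelled libraries (SD, n = 4; log2 difference 0.26 ± 0.08, SE), and Fh1, fumarase, was at 0.20 ± 0.06 (SE).

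Electron carriers and ubiquinone synthesis had 9 of 14 positive differences and a median of 0.06, with 1 gene, Etfb, at an unadjusted p under 0.05 (0.21 ± 0.08, SE). Cycs, cytochrome c, which links complexes III and IV, was at 0.20 ± 0.13 (SE). Import and membrane proteins had 15 of 22 positive differences and a median of 0.05, with 4 higher and 0 lower at an unadjusted p under 0.05 (background 13.0% and 11.8%). Regulators and the machinery of mitochondrial DNA had 6 of 19 positive differences (background 52.0%), a median of -0.05, and 2 higher and 4 lower at an unadjusted p under 0.05 (background 13.0% and 11.8%). Polg2, the accessory subunit of the mitochondrial DNA polymerase, measured 19.5 ± 1.48 CPM in the controls and 14.7 ± 2.01 CPM in the deficient-labelled libraries (SD, n = 4). Of the 19 genes, 2 lay wholly above and 2 wholly below the controls (background 7.61% and 8.66%). The lower ones were Polg2 and Polg, the catalytic subunit, at -0.19 ± 0.06 (SE). The higher ones were Esrra, given below, and Yy1, a transcription factor of mitochondrial genes, at 0.23 ± 0.08 (SE). Named after their values were seen, the coactivator Ppargc1a was at -0.59 ± 0.21, the nuclear receptor Esrra at 0.47 ± 0.17, and the transcription factors Nrf1, Gabpa and Tfam at 0.02 ± 0.07, -0.02 ± 0.05 and -0.05 ± 0.07 (SE).

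The glycolysis list, for the other route to ATP, held 19 genes, among them the transporters Slc2a1 and Slc16a3 and the pyruvate dehydrogenase kinases Pdk1 and Pdk4. Of the 19, 15 had positive differences (background 52.0%) with a median of 0.17. At an unadjusted p under 0.05, 5 were higher and 3 lower (background 13.0% and 11.8%). The lower ones were Ldhb, Slc2a1 and Pdk4. Hk2, a hexokinase that binds mitochondria, measured 19.5 ± 2.32 CPM in the controls and 50.6 ± 21.3 CPM in the deficient-labelled libraries (SD, n = 4), with the groups apart and library 2 at 82.4 CPM (log2 difference 1.37 ± 0.26, SE; adjusted p = 0.0906). The lactate dehydrogenase subunits ran in opposite directions, Ldha at 0.75 ± 0.21 and Ldhb at -1.01 ± 0.24 (SE), each with groups that did not overlap. The adjusted p was 0.104 and 0.0906. Of 11 hypoxia-responsive genes, 3 of which stand in the glycolysis list as well, 2 were higher and 2 lower at an unadjusted p under 0.05 (background 13.0% and 11.8%). Among the latter were the glucose transporter Slc2a1 at -0.76 ± 0.18 and the mitophagy receptor Bnip3 at -0.62 ± 0.12 (SE). The 33 cytosolic ribosomal protein genes, a highly expressed module outside mitochondria, had 1 positive difference and a median of -0.11, with 0 at an unadjusted p under 0.05 in edgeR and 0 called by DESeq2. Their median was 0.02 without deficient-labelled libraries 2 and 3, and that of the hypoxia-responsive genes -0.09, where it was 0.27 with all libraries.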

How the data were processed

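Uterine RNA of 8 libraries was sequenced, 4 in each group. The submitters' processing notes name HISAT2 2.2.1, HTSeq 0.10.0 and the build mm10, without settings. What the authors deposited are whole-number counts for 31269 gene symbols, not normalized. Positions come from a RefSeq table of GRCm38.p6, in which 92 of 92 members were found, 25 of them with a span that overlaps another gene. Part of the reads of those 25 could come from the overlapping gene. Beside those pointed out above, they include Atp5a1, Atp5d, Sdhc, Uqcrc2, Uqcrq and Cox7a2.

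Genes were filtered with filterByExpr (17629 left), scaled with TMM and tested with edgeR 4.0.16 in R 4.3.3 (glmQLFit, glmQLFTest, group as the only term). Benjamini-Hochberg adjustment ran over all tested genes, with a threshold of 0.05. CPM are counts per 1e+06 of the TMM-scaled library size. SE values were taken from the difference and its F value. Intervals are 95% from the same fit and its degrees of freedom. Centred means used log2 CPM with a prior count of 2, and pair ratios added 0.5 to each count. The members and lists were chosen with earlier results of these data known. Named genes are the core subunits and isoforms, Pgr, up to 4 members per complex with the smallest unadjusted p, 5 members per direction with the largest difference, and 3 genes per other list with the smallest unadjusted p. The test was tried on simulated counts. Alternatives were other scalings and filters, DESeq2 1.42.0, limma-voom (limma 3.58.1), robust=TRUE, a replicate block and leaving out libraries. Promoter motifs were not analysed here. Single values of 1 member are not reported here.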

Additional observations from a re-analysis of the deposited data

Results flagged for a closer look

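A single library far from the other 3 of its group, by Dixon's criterion for 4 values, was seen in 4 of 118 groups of 4 examined, where chance gives about 5%. Atp5a1 was lowest in control library 1, at 452 CPM against 493 to 501 CPM in the other controls. Atp5g3 and Sdhb were highest in library 2 labelled deficient, at 105 CPM against 90.5 to 91.7 CPM and at 107.9 CPM against 74.3 to 78.0 CPM. Atp5sl was highest in library 3 labelled deficient, at 59.0 CPM against 47.9 to 49.0 CPM.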

How the results depend on the processing

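Under the alternatives run, 820 of 871 values of named genes kept the sign they had in the main analysis, and 1, Atp5sl in DESeq2, passed the adjusted threshold. Over all genes DESeq2 called 2488, limma-voom 2 and leaving out each library in turn between 0 and 2, where the main analysis called 0. Of all genes, 4372 had an unadjusted p under 0.05, between 2896 (without control library 4) and 5471 (without deficient-labelled library 4) on leaving out 1 library, and 2665 without control library 1 and deficient-labelled library 2.

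Of the oxidative phosphorylation genes DESeq2 called 1. The 6 that were higher at an unadjusted p under 0.05 became 10 in DESeq2, between 0 (without control library 4) and 14 (without deficient-labelled library 4) on leaving out 1 library (1 without control library 1 or deficient-labelled library 2, 3 without control library 3 or deficient-labelled library 1 or 3), 1 without deficient-labelled libraries 2 and 3, and 0 without control library 1 and deficient-labelled library 2. The 2 that were lower became 1 with no filter, with a filter of 1 CPM in 4 libraries (which does not test Cox8b), in DESeq2, with robust=TRUE and without either pair of libraries, and 1 to 2 on leaving out 1 library. The 2 whose groups lay apart and higher became 1 under either other filter, 1 to 19 on leaving out 1 library (19 without deficient-labelled library 4, 9 without control library 2, 7 without control library 3), 5 without deficient-labelled libraries 2 and 3, and 1 without control library 1 and deficient-labelled library 2. The 0 lying apart and lower became 1 with upper-quartile scaling or library totals, 0 to 1 on leaving out 1 library, and 1 and 3 without those pairs. Fewer libraries make groups lie apart more easily; otherwise the cause was not tested.

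With library totals, deficient-labelled library 2 was highest in 37 genes, and the median of import and membrane proteins was 0.0117. Without deficient-labelled libraries 2 and 3, medians were 0.0261 for the tricarboxylic acid cycle, -0.0875 for hypoxia-responsive genes and 0.0189 for cytosolic ribosomal proteins, and the pair differences were 0.195 for Cox4i2, 0.0150 for Cox6b2 and 0.226 for Ndufa4l2. Without control library 1 and deficient-labelled library 2, medians were 0.00581 for all 90 genes, 0.0201 for complex I, 0.00612 for complex V and 0.0285 for the tricarboxylic acid cycle.

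The labels do not say whether the replicate numbers pair the libraries. For each gene, the mean log2 CPM of its group was subtracted in every library. Correlations of these deviations between same-numbered libraries were 0.20, 0.24, -0.01 and -0.08. By the same measure, 3 of 8 libraries correlated best with their own number. So few libraries cannot show whether a pairing exists. With the replicate block, 23 genes of all tested were called and 0 of the 90, of which 10 were higher and 1 lower at an unadjusted p under 0.05.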
